A study of Homo sapiens with 6 samples.

Results

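The ADAM, ADAMTS and ADAMTSL genes encode zinc metalloproteinases of the adamalysin branch and their non-enzymatic relatives. They were followed in ES2 cells, a human ovarian cancer line, after knockdown of UAP1, the enzyme that makes UDP-N-acetylglucosamine, the sugar donor for protein glycosylation. Members were the protein-coding genes whose symbol is ADAM, ADAMTS or ADAMTSL followed by a number and nothing else, which gave 44 of the 58735 genes in the count table. There are 20 ADAM, 19 ADAMTS and 5 ADAMTSL genes among them. The rule itself uses no measured value, but the family was chosen with earlier results of these data known.

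The siUAP1 group holds 3 libraries of ES2 cells transfected with UAP1 siRNAs, and the control group holds 3 libraries transfected with a control siRNA. All cells are labelled wild type in genotype, carried the same lipid transfection reagent, and gave RNA 48 hours after transfection. The labels name a pair of UAP1 siRNAs without saying whether they were pooled or which library received which. A single cell line was used. The labels are silent on whether the replicates were separate cultures, so each p-value reflects only how far these libraries scatter. That scatter may be technical, and for each gene edgeR estimates it partly from the other genes. In bulk RNA, fewer cells of a kind and less RNA per cell cannot be told apart.

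The libraries held between 21267240 and 25972582 counts, with 4.23% to 6.02% of them mitochondrial. UAP1 itself had 521, 608 and 642 counts in the siUAP1 libraries and 7341, 9081 and 10848 counts in the control libraries. That is 93.5% to 94.3% less within the pairs of equal replicate number, and UAP1 was 16.3-fold lower in the fit on groups (log2 fold change -4.03, SE 0.136, edgeR adjusted p = 6.12e-06). Of the markers of the labelled carcinoma, KRT7, KRT8, KRT18 and VIM were abundant at mean FPKM of 122.8, 38.29, 158.5 and 359.8 in siUAP1 cells and 81.71, 21.88, 111.4 and 399 in control cells. The ovarian markers PAX8 and WT1 stayed below 1 FPKM in every library, MUC16 was at 0 in all 6, and MSLN, EPCAM and CDH1 were at or near 0. None of the leukocyte, erythroid or testis markers passed the filter on low counts. The endothelial cadherin CDH5 averaged 24.18 FPKM in siUAP1 cells and 23.71 FPKM in control cells, with PECAM1 at 0.20 FPKM in both. VWF, the other endothelial marker read, averaged 0.075 FPKM in siUAP1 cells and 0.037 FPKM in control cells and did not pass the filter.

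ADAM proteins sit in the cell membrane, where their metalloproteinase domain cuts the outer part of other membrane proteins free, a process called ectodomain shedding. ADAM17 and ADAM10 are the main sheddases, releasing cytokines, growth factors of the EGF family and the extracellular part of Notch receptors. Several ADAM proteins have no complete zinc-binding site and act in adhesion and in binding other proteins. ADAMTS enzymes are secreted, carry thrombospondin type 1 repeats, and trim the extracellular matrix: proteoglycans, procollagens, fibrillin and cartilage matrix proteins. ADAMTSL proteins share the repeats and have no protease domain.

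The members differed in level by far more than they differed between groups. On the authors' FPKM scale, which divides by gene length, ADAM9 had the highest mean over all 6 libraries, at 61.02 ± 1.85 in siUAP1 cells and 55.36 ± 2.37 in control cells (SD, n = 3 each). By the same mean ADAMTS1 came next (38.83 FPKM in siUAP1 cells, 62.1 in control cells), and in control cells its mean stood above that of ADAM9. The control libraries had 75.65, 52.08 and 58.56 FPKM of ADAMTS1 and 52.95, 57.68 and 55.46 FPKM of ADAM9, so the second library had the reverse order. ADAM15 (39.63 and 41.54), ADAMTS2 (21.91 and 22.29) and ADAMTSL1 (14.96 and 15.94) followed, with siUAP1 cells given before control cells, and ADAM15 was level with ADAMTS1 in siUAP1 cells. These 5 genes held 70.1% to 80.1% of the family's summed FPKM in each library. The summed FPKM over the 44 genes was 247.8, 245.9 and 240 in siUAP1 libraries and 258.9, 249.9 and 251.1 in control libraries.

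**Figure D1:**
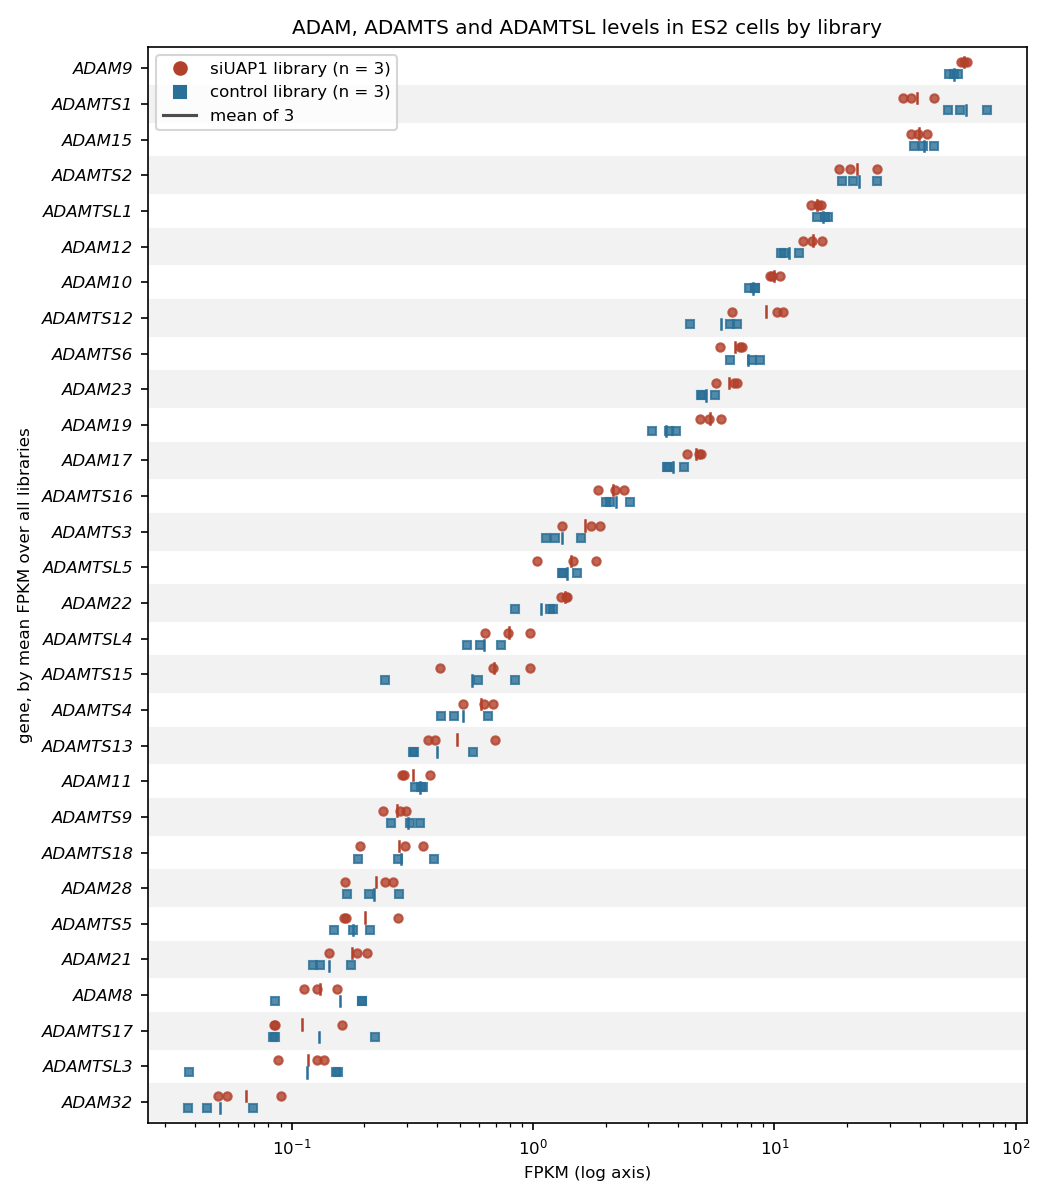
FPKM of the 30 members that passed the filter on low counts, in each of the 3 siUAP1 (circles) and 3 control libraries (squares) on a log axis, with the mean of each group as a short bar. Levels run from ADAM9 at about 60 FPKM down to ADAM32 below 0.1 FPKM, and the 3 siUAP1 libraries lie below all control libraries for ADAMTS1 and above them for ADAM19.

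Of the 44 members, 30 passed the filter on low counts and were tested, and 14 did not. In 7 of those 14 no count was recorded in any library: ADAM2, ADAM18, ADAM29, ADAM30, ADAMTS8, ADAMTS10 and ADAMTS14. The floor of 3 counts lies between 0.115 and 0.141 CPM (counts scaled to library size) in these libraries, for counting error only. ADAM2, ADAM18, ADAM29 and ADAM30 are known from testis and sperm, and the testis markers PRM1, PRM2, TNP1, ACR and ZPBP were at 0 as well. The untested member with the most counts was ADAMTS19, with 5, 6 and 6 counts in siUAP1 libraries and 3, 14 and 24 in control libraries. ADAM7, ADAM20, ADAM33, ADAMTS7, ADAMTS20 and ADAMTSL2 had at most 6 counts in any library.

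The libraries share replicate numbers, and libraries of the same number deviated together from their group means. Each gene was therefore read in a pair of fits: edgeR on the groups alone, and edgeR with the replicate number as a block, called the fit with pairs. In the fit on groups no member passed an adjusted p of 0.05, where 0.108% of the 15768 genes tested did. The lowest adjusted p of a member there was 0.181, for ADAM19, and unadjusted p-values fell under 0.05 for 6 members higher and 1 lower in siUAP1 cells, where 4.31% of all genes tested were higher and 2.83% lower by that rule. In the fit with pairs, 8 of the 30 tested members were higher in siUAP1 cells (26.7%), beside 9.07% of all genes tested, and 2 were lower (6.67%), beside 7.14%. Among genes with a mean of at least 5 CPM, where smaller changes can be called, the shares of all genes were 12.8% higher and 10.2% lower. Of the 17 members tested there, the same 8 were higher and the same 2 lower. The median log2 fold change of the tested members was 0.15, beside -0.003 over all genes tested. Below, rose and fell refer to the fit with pairs, and the adjusted p in the fit on groups is given beside each call of a member.

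The calls were mostly in ADAM genes, with 7 of 13 tested ADAM members higher and none lower. Among the ADAMTS members, 1 of 13 tested was higher and 2 were lower, and none of the 4 tested ADAMTSL members was called. Whether the subfamilies differ from each other was not tested. Without any fit, the CPM of all 3 siUAP1 libraries lay above all 3 control libraries for 7 members, where 6.74% of genes tested did so. It lay below for 1 member, ADAMTS1, where 5.71% of genes did so.

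**Figure D2:**
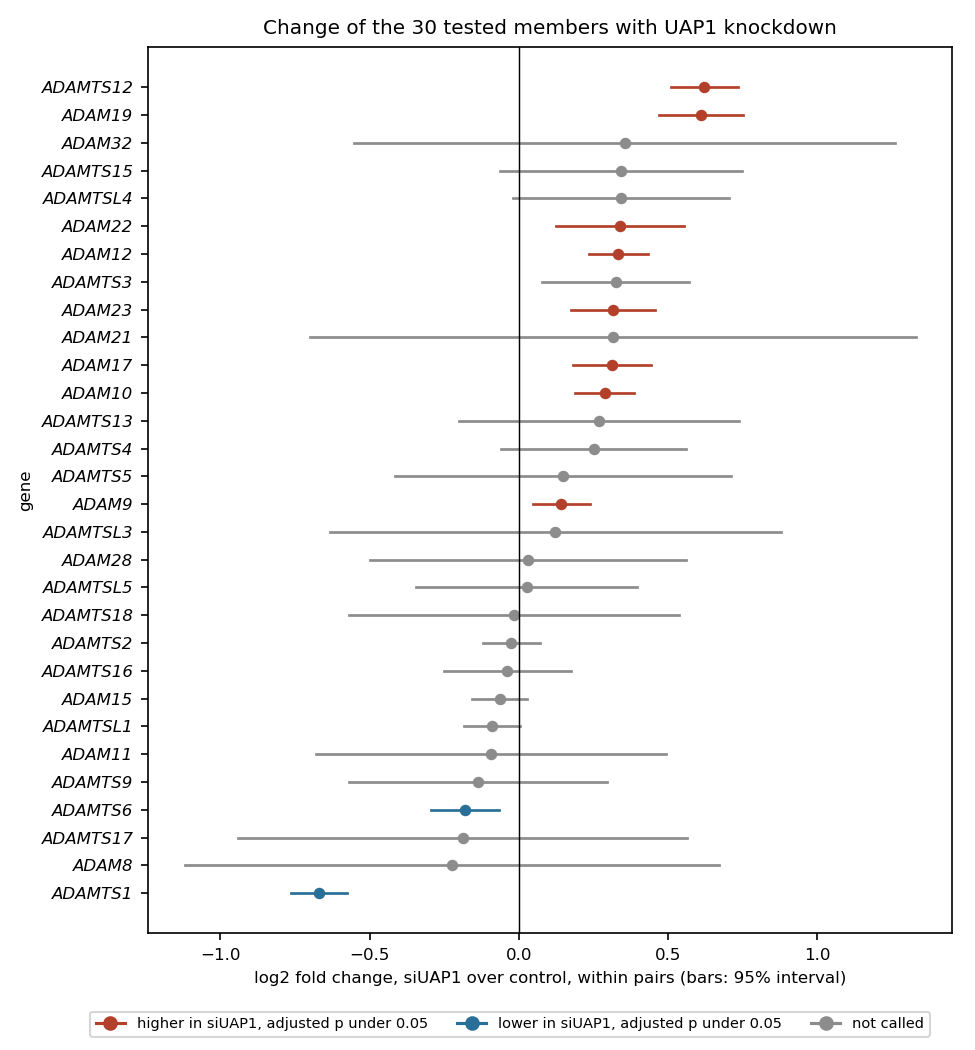
Log2 fold change, siUAP1 over control, of the 30 tested members in the edgeR fit with pairs, with 95% intervals, sorted from highest to lowest. ADAMTS12 and ADAM19 lie highest at 0.62 and 0.61 and ADAMTS1 lowest at -0.67, and the intervals of low-count genes such as ADAM32, ADAM21 and ADAM8 span both directions.

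The promoters of 4 members that rose are shown because they belong to the members that rose by at least 1.5-fold, ADAMTS12 and ADAM19, and to the main sheddases ADAM17 and ADAM10. They come from RefSeq on GRCh38.p14, which held a promoter for 29 of the 44 members by symbol, and run 5′ to 3′ in the transcribed direction from 250 bases before the start site to 50 after it. All 4 lie on the minus strand: ADAM10 at chr15:58749658-58749957, ADAM17 at chr2:9555781-9556080, ADAM19 at chr5:157575726-157576025 and ADAMTS12 at chr5:33891941-33892240. The RefSeq start site lay 271, 902, 0 and 202 bases from the deposited start of the gene, in the same order. On the minus strand that start is the higher coordinate. ADAMTS1, which fell 1.59-fold, had no promoter entry by symbol and is not shown. Capitals mark matches to the motifs searched.
ADAM10: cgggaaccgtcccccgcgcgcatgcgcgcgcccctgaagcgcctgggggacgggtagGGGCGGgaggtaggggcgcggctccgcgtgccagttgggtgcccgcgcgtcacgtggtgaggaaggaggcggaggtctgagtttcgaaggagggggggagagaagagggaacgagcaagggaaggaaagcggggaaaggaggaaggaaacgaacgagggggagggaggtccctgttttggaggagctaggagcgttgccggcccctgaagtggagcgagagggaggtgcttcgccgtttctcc
ADAM17: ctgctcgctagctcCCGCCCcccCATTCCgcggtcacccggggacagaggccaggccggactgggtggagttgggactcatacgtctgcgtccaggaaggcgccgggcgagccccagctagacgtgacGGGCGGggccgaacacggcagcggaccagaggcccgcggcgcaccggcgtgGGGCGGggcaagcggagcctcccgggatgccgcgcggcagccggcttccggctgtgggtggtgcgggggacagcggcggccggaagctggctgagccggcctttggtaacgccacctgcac
ADAM19: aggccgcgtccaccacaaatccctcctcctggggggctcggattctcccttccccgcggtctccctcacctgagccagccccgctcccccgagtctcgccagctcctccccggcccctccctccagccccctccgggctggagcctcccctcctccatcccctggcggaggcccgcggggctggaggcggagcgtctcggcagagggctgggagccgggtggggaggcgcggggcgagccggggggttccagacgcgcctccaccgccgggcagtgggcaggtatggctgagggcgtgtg
ADAMTS12: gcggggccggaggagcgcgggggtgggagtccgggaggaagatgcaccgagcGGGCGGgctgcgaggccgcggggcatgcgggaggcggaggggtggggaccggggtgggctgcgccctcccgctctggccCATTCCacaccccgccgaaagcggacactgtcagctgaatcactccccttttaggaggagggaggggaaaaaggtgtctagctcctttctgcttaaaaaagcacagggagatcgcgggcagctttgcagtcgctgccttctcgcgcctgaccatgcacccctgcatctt
Their G and C content was 68% in ADAM10, 74.7% in ADAM17, 75.7% in ADAM19 and 67% in ADAMTS12.

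On both strands, 6 short motifs were searched: the GC box GGGCGG, the TATA box TATAAA, the CCAAT box CCAAT, the AP-1 element TGACTCA, the cyclic AMP response element TGACGTCA and the TEAD element GGAATG. A GC box began 193 bases before the start site in ADAM10 (position -193), at -236, -122 and -71 in ADAM17, and at -198 in ADAMTS12. The TEAD letters began at -227 in ADAM17 and at -119 in ADAMTS12, and the ADAM19 window held none of the 6. Matches of different motifs did not overlap in these windows. Over the 20 tested members with a promoter entry, 16 held a GC box (80%), beside 45% of 35116 RefSeq promoters of the same length. Those 35116 were not limited to genes that passed the filter on low counts. This share and those that follow therefore compare unlike sets. The TEAD letters were in 4 of the 20 (20%, beside 14%), CCAAT in 6 (30%, beside 34.6%), TATAAA in 1 (5%, beside 11.5%), TGACGTCA in 1 (5%, beside 1.85%) and TGACTCA in none (beside 4.95%). A match is a description of these letters and not a measured binding site.

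Among the ADAM members with a complete zinc-binding site, 5 of 9 tested rose and none fell, with a median log2 fold change of 0.29. ADAM19, a membrane protease known to process neuregulin, had 41.9, 46.58 and 38.16 CPM in siUAP1 libraries and 28.37, 30.62 and 24.0 CPM in control libraries. The groups did not overlap, and all 3 pairs differed by a similar step (log2 0.56, 0.60 and 0.67). The fold change was 1.53 (log2 0.61, SE 0.068, 95% interval 0.47 to 0.75, edgeR adjusted p with pairs 4.02e-07 and on groups 0.181).

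ADAM12, which occurs as a membrane and a secreted protein and cleaves binding proteins of insulin-like growth factors, had 142.4, 156.8 and 130.8 CPM in siUAP1 libraries and 109.2, 126.6 and 105.5 CPM in control libraries. Every siUAP1 library was above every control library, by 0.31 to 0.38 on the log2 scale within pairs. It rose 1.26-fold (log2 0.33, SE 0.048, edgeR adjusted p with pairs 1.46e-05 and on groups 0.489).

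Both main sheddases rose by a similar and smaller amount. ADAM10 had 159.7, 171.9 and 156.0 CPM in siUAP1 libraries and 135.0, 136.6 and 127.6 CPM in control libraries, a 1.22-fold rise without overlap (log2 0.29, SE 0.047, edgeR adjusted p with pairs 8.8e-05 and on groups 0.411). ADAM17, the TNF-releasing sheddase, had 53.04, 53.66 and 46.95 CPM in siUAP1 libraries and 45.54, 39.47 and 38.87 CPM in control libraries. The lowest siUAP1 library lay just above the highest control library, and the rise was 1.24-fold (log2 0.31, SE 0.063, edgeR adjusted p with pairs 8.63e-04 and on groups 0.519). On the FPKM scale ADAM10 was the more abundant of them, with ADAM10 and ADAM17 at 9.95 ± 0.52 and 4.72 ± 0.34 in siUAP1 cells and 8.16 ± 0.27 and 3.81 ± 0.34 in control cells.

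ADAM9, a widely expressed membrane protease, had 424.6, 439.2 and 414.4 CPM in siUAP1 libraries and 368.5, 404.0 and 385.3 CPM in control libraries. The groups did not overlap, but the difference was small, at 1.1-fold (log2 0.14, SE 0.046, edgeR adjusted p with pairs 0.0337 and on groups 0.871). The call was lost when any 1 of the 3 pairs was left out, with edgeR adjusted p of 0.0954 to 0.182.

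ADAM15, a sheddase known for cleaving adhesion molecules and abundant here, was not called. It had 246.0, 260.0 and 284.6 CPM in siUAP1 libraries and 251.3, 274.2 and 301.8 CPM in control libraries, with a log2 fold change of -0.06 (95% interval -0.158 to 0.029, edgeR adjusted p with pairs 0.392). The upper end of its interval lies below the rise of ADAM9 and of the other ADAM members that rose. The rest of the tested members with a complete site, ADAM8, ADAM21 and ADAM28, averaged at most 2.12 CPM in either group. Their log2 fold changes were -0.23, 0.32 and 0.03 with SE of 0.43, 0.49 and 0.26, so that a change the size of that of ADAM10 was not detectable at this depth. ADAM21 and the untested ADAM20 have near-identical copies in the genome and their counts are uncertain.

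Of the 8 ADAM members without a complete zinc-binding site 4 were tested, and 2 of these rose. ADAM23, a receptor of the secreted LGI proteins on neurons, had 44.08, 45.36 and 37.18 CPM in siUAP1 libraries and 32.18, 36.76 and 32.44 CPM in control libraries. No control library reached the siUAP1 range, and it rose 1.25-fold (log2 0.32, SE 0.068, edgeR adjusted p with pairs 0.00173 and on groups 0.554). ADAM22, a related LGI receptor, had 17.0, 16.84 and 16.1 CPM in siUAP1 libraries and 14.44, 14.98 and 10.36 CPM in control libraries. Its 1.27-fold rise (log2 0.34, SE 0.105, edgeR adjusted p with pairs 0.0263 and on groups 0.774) was widest in the third pair. Within pairs it differed by 0.23, 0.17 and 0.63 on the log2 scale, and without the third it was 0.20 with an edgeR adjusted p of 0.364. ADAM11 and ADAM32, both below 2 CPM, were not called.

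**Figure D3:**
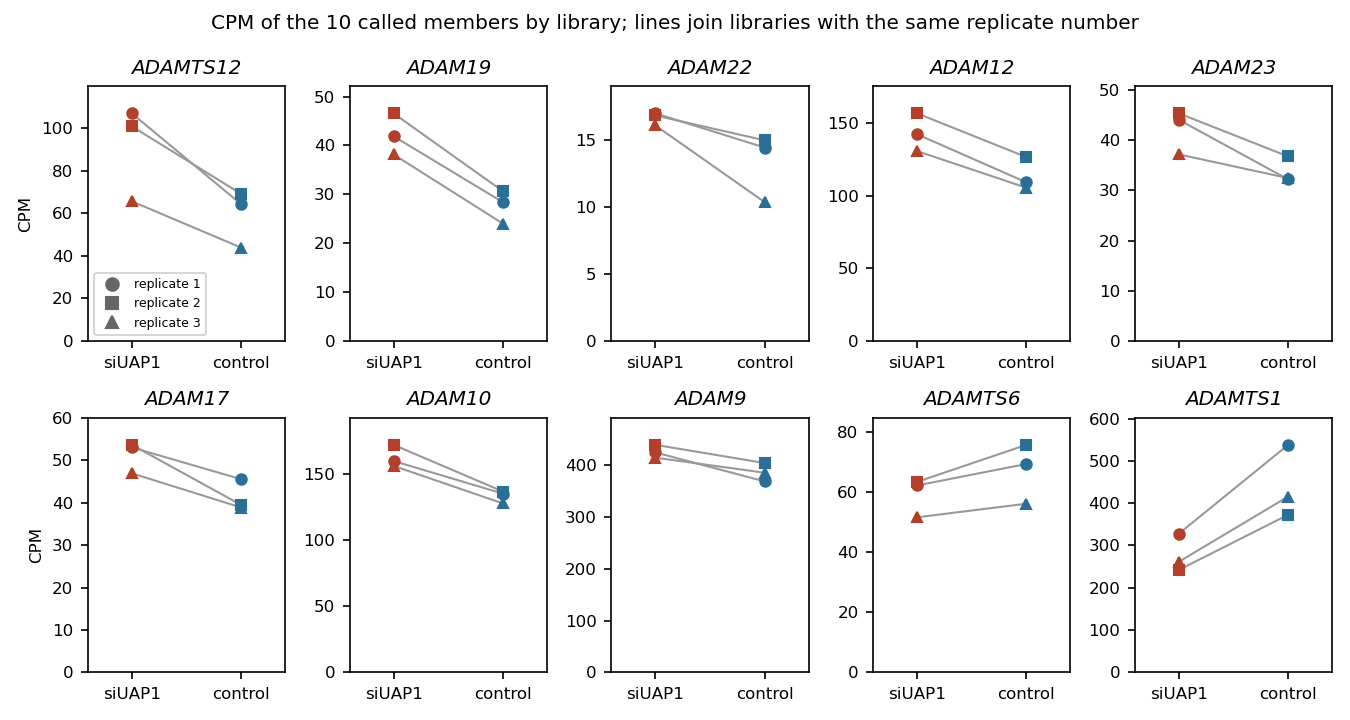
CPM of the 10 members called in the fit with pairs, one panel each with its own axis from 0, with siUAP1 libraries at the left and control libraries at the right, and lines joining libraries of the same replicate number. In all 10 panels the 3 lines slope the same way, and for ADAMTS12 and ADAMTS6 the third pair lies below the other two so that the groups overlap.

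ADAMTS1 fell and ADAMTS12 rose, and these were the largest changes in the family in either direction. ADAMTS1, a secreted protease that cuts versican and other large proteoglycans and binds VEGF, had 327.7, 242.2 and 261.3 CPM in siUAP1 libraries and 538.0, 372.7 and 415.7 CPM in control libraries. The highest siUAP1 library lay below the lowest control library. The mean was 277.1 ± 44.9 CPM in siUAP1 cells and 442.1 ± 85.7 CPM in control cells (SD, n = 3 each). It fell by 37.1% (log2 fold change -0.67, SE 0.046, 95% interval -0.764 to -0.574, edgeR adjusted p with pairs 1.33e-10). In the fit on groups the log2 fold change was the same to 2 decimals, -0.67, with an unadjusted p of 0.00255 and an adjusted p of 0.244. The first pair was high in both groups, and the 3 pairs differed by -0.71, -0.62 and -0.67 on the log2 scale.

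ADAMTS1 carried nearly all of the FPKM of the ADAMTS enzymes that cleave large proteoglycans. The summed FPKM of those 7 genes was 47.6, 36.13 and 38.11 in siUAP1 libraries and 77.21, 54.02 and 59.74 in control libraries. The other tested members of the class were far lower and none was called. ADAMTS4 had 6.33 ± 0.91 CPM in siUAP1 cells and 5.34 ± 1.33 CPM in control cells, and ADAMTS5, ADAMTS9 and ADAMTS15 stayed below 6 CPM in every library. ADAMTS5 lies 72.5 kb from ADAMTS1 on chromosome 21, on the same strand, and had 1.85 ± 0.57 CPM in siUAP1 cells and 1.65 ± 0.28 CPM in control cells. Its log2 fold change of 0.15 had a 95% interval of -0.414 to 0.712, which does not reach the fall of ADAMTS1.

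ADAMTS12, a protease of cartilage oligomeric matrix protein (COMP), had 107.0, 100.9 and 65.64 CPM in siUAP1 libraries and 64.21, 69.07 and 43.83 CPM in control libraries. The groups overlapped, with the third library low in both, while within each pair the siUAP1 library was higher by 0.55 to 0.74 on the log2 scale. The fold change was 1.54 (log2 0.62, SE 0.055, 95% interval 0.51 to 0.74, edgeR adjusted p with pairs 8.14e-09 and on groups 0.51). Of the other COMP protease, ADAMTS7, 4 counts in 1 siUAP1 library were the only ones recorded, and the substrate gene COMP itself did not pass the filter.

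ADAMTS6, a fibrillin-associated protease, had 62.33, 63.5 and 51.7 CPM in siUAP1 libraries and 69.48, 75.87 and 56.24 CPM in control libraries. The ranges overlapped, and within pairs it was lower by a small step each time (log2 -0.16, -0.26 and -0.12). It fell by 11.7% (log2 fold change -0.18, SE 0.055, edgeR adjusted p with pairs 0.0263 and on groups 0.917). Without the second pair the edgeR adjusted p was 0.245, and without the third 0.0879, so the call rested on both of them.

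The procollagen N-propeptidases, which trim fibrillar procollagens, were not called. ADAMTS2 was abundant, with 164.1, 181.0 and 234.0 CPM in siUAP1 libraries and 168.0, 186.8 and 233.4 CPM in control libraries. Its libraries differed more between replicate numbers than between groups, and the log2 fold change was -0.03 (95% interval -0.12 to 0.07, edgeR adjusted p with pairs 0.786). ADAMTS3 had 9.54, 13.7 and 12.56 CPM in siUAP1 libraries and 8.94, 11.48 and 8.19 CPM in control libraries, with a log2 fold change of 0.33 and an edgeR adjusted p with pairs of 0.0652. Without the first pair it was 0.43 with an edgeR adjusted p of 0.0192.

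ADAMTS13, the protease of von Willebrand factor, and ADAMTS16, ADAMTS17 and ADAMTS18 were not called either. ADAMTS16 had 12.7 ± 1.5 CPM in siUAP1 cells and 13.03 ± 1.7 CPM in control cells, and its log2 fold change of -0.04 had an interval of -0.252 to 0.176. Among the ADAMTS-like genes, whose products bind the matrix without cutting it, ADAMTSL1 alone was abundant. It had 209.1, 215.3 and 194.4 CPM in siUAP1 libraries and 228.4, 224.9 and 204.9 CPM in control libraries, lower in all 3 pairs but not called (log2 fold change -0.09, 95% interval -0.184 to 0.006, edgeR adjusted p with pairs 0.213). ADAMTSL3, ADAMTSL4 and ADAMTSL5 stayed below 7 CPM, with log2 fold changes of 0.12, 0.34 and 0.03.

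Some member counts share exon sequence with a neighbouring gene, and the use of strand in counting is not given in the sources used here. ADAM17 shares 1323 exon bases with IAH1 on the opposite strand, and ADAM19 shares 62 with CYFIP2 on the opposite strand. IAH1 averaged 30.83 CPM in siUAP1 cells and 28.52 CPM in control cells and was not called (log2 fold change 0.12). CYFIP2 fell to 20.8 CPM in siUAP1 cells, against 27.21 CPM in control cells (log2 fold change -0.39, edgeR adjusted p with pairs 0.00118 and on groups 0.55), opposite in direction to ADAM19. The 44 members lie on many chromosomes, with 6 each on chromosomes 5 and 8. On chromosome 5 ADAM19 and ADAMTS12 rose, ADAMTS6 fell, and ADAMTS2 and ADAMTS16 were not called.

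Genes that act with the family were read from lists of partners, inhibitors, maturation enzymes and substrates. None of their genes was called in the fit on groups, where the 35 genes called with pairs had edgeR adjusted p of 0.206 to 0.992. All counts here come from the fit with pairs, as does an adjusted p given alone, beside the same 9.07% higher and 7.14% lower of all genes tested. Of 9 partners of ADAM17 and ADAM10, 3 rose and none fell, with a median log2 fold change of 0.10. RHBDF2, an inactive rhomboid protein that carries ADAM17 to the cell surface, had 6.495, 4.803 and 4.772 FPKM in siUAP1 libraries and 3.38, 3.18 and 3.83 FPKM in control libraries. No siUAP1 library was as low as a control library, and the rise was 1.54-fold (log2 0.62, SE 0.088, edgeR adjusted p 1.37e-05). The rise was uneven, at 0.95, 0.59 and 0.32 on the log2 scale in the 3 pairs. TSPAN15 and TSPAN14, tetraspanins that escort ADAM10, rose by log2 0.54 (edgeR adjusted p 5.15e-04) and 0.24 (6.21e-04). The TSPAN14 call was lost without the third pair (edgeR adjusted p 0.0683). TSPAN5, TSPAN17, TSPAN10, TSPAN33, RHBDF1 and FRMD8 were not called.

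Of 6 tested inhibitors and clearance genes 3 rose and none fell, with a median log2 fold change of 0.32. TIMP3, the matrix-bound inhibitor of ADAM17, ADAM10 and several ADAMTS enzymes, had 326.9, 276.3 and 128.5 FPKM in siUAP1 libraries and 136.2, 135.3 and 65.58 FPKM in control libraries. The third library was the lowest in each group, and TIMP3 rose 2.13-fold, more than any member (log2 1.09, SE 0.053, edgeR adjusted p with pairs 2.74e-13 and on groups 0.457). TIMP2 rose by log2 0.40 (edgeR adjusted p 8.52e-07), and the endocytic receptor LRP1, which clears several ADAMTS enzymes, by log2 0.24 (8.8e-04). LRP1 shares 59 exon bases with STAT6 on the opposite strand. TIMP1 averaged 124.1 FPKM in siUAP1 cells and 126.5 FPKM in control cells and was not called.

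Among 5 tested maturation genes 2 rose. FURIN, the protease that removes the inhibitory prodomain of most ADAM and ADAMTS proteins, had 27.25, 25.89 and 25.27 FPKM in siUAP1 libraries and 20.57, 18.55 and 20.02 FPKM in control libraries. Its groups were well apart, and it rose 1.33-fold (log2 0.41, SE 0.05, edgeR adjusted p with pairs 1.4e-06 and on groups 0.206). B3GLCT, which extends the O-linked fucose on thrombospondin type 1 repeats, rose by log2 0.37 (edgeR adjusted p 0.0142), a call lost without any 1 pair. POFUT2, which adds that fucose, was not called.

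Shed ligands of the EGF family moved in both directions: of 6 tested, 2 rose and 3 fell, with a median log2 fold change of -0.10. HBEGF, a classic ADAM17 and ADAM12 substrate, had 26.53, 18.48 and 23.67 FPKM in siUAP1 libraries and 46.15, 27.28 and 34.94 FPKM in control libraries. All siUAP1 libraries lay below all control libraries, and it fell by 35.8% (log2 fold change -0.64, SE 0.055, edgeR adjusted p with pairs 5.44e-09 and on groups 0.394). EREG had 58.59, 15.86 and 8.34 FPKM in siUAP1 libraries and 29.31, 10.87 and 5.51 FPKM in control libraries. It varied more between replicate numbers than between groups and rose 1.67-fold within pairs (log2 0.74, edgeR adjusted p with pairs 1.03e-08 and on groups 0.935). NRG1 fell by a small step close to the threshold (log2 fold change -0.17, edgeR adjusted p with pairs 0.0471 and on groups 0.992). EGF rose and AREG fell at mean levels below 3 CPM, and neither call was firm. The EGF call was lost without the first or the third pair (edgeR adjusted p 0.346 and 0.104), and the AREG call without any 1 pair (0.0954 to 0.236).

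Of 19 other shed substrates tested 9 rose and 1 fell, with a median log2 fold change of 0.15. SDC4, a heparan sulfate proteoglycan of the cell surface, rose by log2 0.64 (edgeR adjusted p 6.15e-09), VCAM1 by 0.56 (2.03e-06), NOTCH2 by 0.40 (5.72e-07) and ICAM1 by 0.36 (1.18e-05). JAG1 was the 1 that fell (log2 fold change -0.27, edgeR adjusted p with pairs 0.00123 and on groups 0.959). NOTCH1 was not called (log2 fold change -0.14, edgeR adjusted p 0.0805). CD44, APP and CDH2, abundant substrates of ADAM10, were not called, with log2 fold changes of 0.02, -0.05 and 0.04.

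ADAMTS substrates rose in 12 of 14 tested, and none fell, with a median log2 fold change of 0.45. COL1A1, the procollagen chain trimmed by ADAMTS2, had 175.3, 237.9 and 137.3 FPKM in siUAP1 libraries and 86.14, 145.8 and 78.31 FPKM in control libraries. The ranges overlapped, and it rose 1.8-fold (log2 0.85, SE 0.055, edgeR adjusted p with pairs 4.98e-11 and on groups 0.44). THBS1, FBN2 and FBN1 rose by log2 0.66, 0.53 and 0.43 (edgeR adjusted p 2.64e-10, 2.31e-08 and 7.29e-07). VCAN, the versican gene whose product ADAMTS1 cuts, rose to 72.43 CPM in siUAP1 cells, against 52.03 CPM in control cells (log2 0.45, edgeR adjusted p 8.47e-06). It was picked out after its values were seen, as were the furthest points of the plot of related lists, COL1A2 and NID2, with log2 fold changes of 1.87 and 1.23. COL1A2 averaged under 1 CPM in each group. The relatives THSD4 and PAPLN, which share domains with the ADAMTS-like proteins, were not called (log2 fold changes 0.06 and 0.20).

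**Figure D4:**
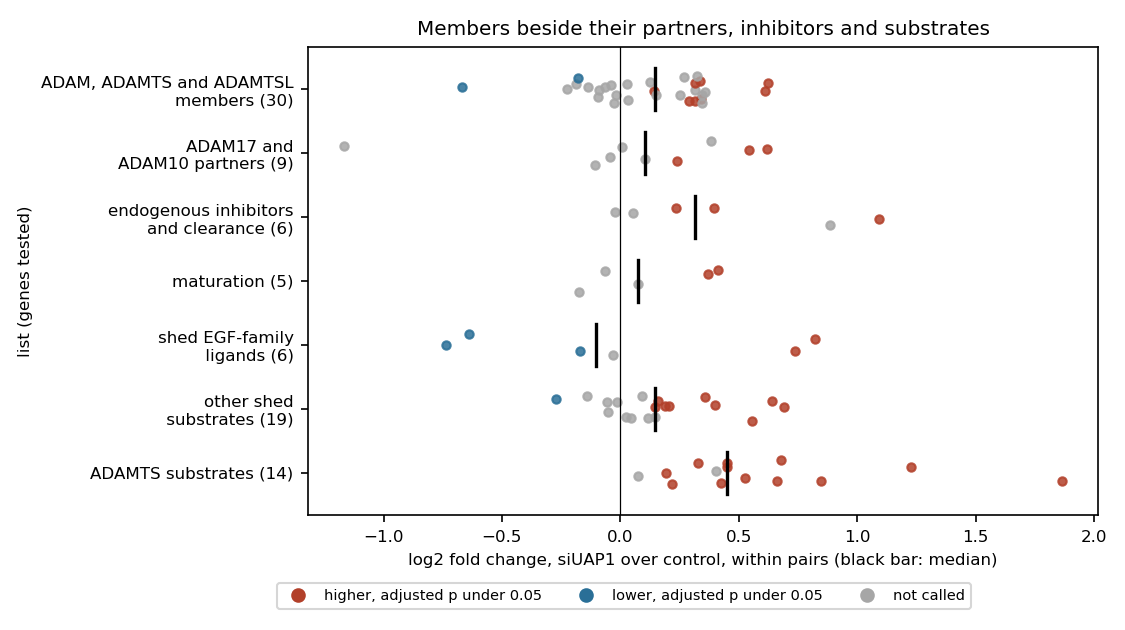
Log2 fold changes, siUAP1 over control, of the tested genes of each list in the fit with pairs, 1 point per gene, with the median as a black bar and the colour giving the call. The points of the ADAMTS substrates lie right of 0 with a median of 0.45, those of the EGF-family ligands lie on both sides with a median of -0.10, and TIMP3 is the furthest called inhibitor at 1.09.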

How the data were processed

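RNA of 6 ES2 libraries (3 siUAP1, 3 control) was compared, grouped by the siRNA and replicate number in their titles. The authors deposited raw counts per gene and FPKM, which scale counts by gene length and library size. Build GRCh38.p12 and DESeq2 are named in the submitters' processing notes. Strand, aligner and counter were not given in the sources used here. Per the labels' protocols, RNA was either selected by poly(A) or depleted of ribosomal RNA. Coordinates are 1-based on GRCh38. GENCODE release 29 placed all 44 members at the same coordinates and gave the exon overlaps.

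The main test, on the counts as deposited, was edgeR 4.0.16 in R 4.3.3 with TMM scaling, filterByExpr at a minimum count of 10, and quasi-likelihood fits on the group. P-values were adjusted by Benjamini-Hochberg over the 15768 genes kept, at a threshold of 0.05. SE is the log2 fold change over the square root of its F, and intervals are 95%. CPM are scaled by TMM. The fits were also run on simulated data. These were built with deviations shared by replicate number, so they cannot show whether the numbers pair the libraries. Whether replicate numbers pair the libraries was decided from their deviations from group means: same-numbered libraries correlated at 0.552, 0.454 and 0.584, all above the set 0.1, and their library names share a code. The fit with the number as a block is therefore given beside the fit on groups. Alternatives were other scalings, filters and tools (limma 3.58.1, DESeq2 1.42.0), FPKM with a pseudocount of 1, and leaving out libraries or pairs.

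Every member passing the filter is described, called members in every library. Of related lists, up to 4 called genes of smallest p are named, with some other called genes and examples of uncalled genes added. The members and lists were chosen with earlier results of these data known.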

Additional observations from a re-analysis of the deposited data

How the results depend on the processing

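In the fit on groups, no member was called under other scalings, a higher filter (mean CPM of 5 or more), a restriction to protein-coding genes, limma or without any 1 library. Without a filter beyond 1 count 2 members were called higher and 1 lower (273 genes in all, against 17), in DESeq2 1 higher and 1 lower (165 genes), and with the replicate block 8 higher and 2 lower (2556 genes). Calls over all genes were 12 in limma-voom and 1 to 3 in limma on FPKM and without any 1 library. The fit with pairs kept its 8 higher and 2 lower members, the same 10 genes, under other scalings, filters and limma-voom. In DESeq2 with the block 7 were higher and 1 lower (1311 genes), in limma on log2(FPKM + 1) 4 higher and 1 lower (944 genes), and with no replicate block 0 and 0. Without any 1 pair 6 to 8 members were higher and 1 to 2 lower (1195 to 2204 genes). ADAM19, ADAMTS12, ADAM12, ADAM10 and ADAMTS1 were called in every alternative with the block. ADAM23 and ADAM17 were lost in limma on FPKM alone (adjusted p 0.055 and 0.0669), and ADAM22 and ADAMTS6 also in DESeq2 (0.173 and 0.138). ADAM9, lost without any 1 pair, was lost in limma on FPKM as well (limma adjusted p 0.0955). Among related genes, LRP1, B3GLCT and AREG also lost their calls in limma on FPKM (limma adjusted p 0.0616, 0.0635 and 0.0673). B3GLCT was lost in DESeq2 too (DESeq2 adjusted p 0.132). Directions of some uncalled genes turned when a pair was left out: log2 fold changes ranged from -0.202 to 0.311 for ADAMTSL5 (-0.033 without the third pair), -0.312 to 0.034 for ADAMTS9, -0.192 to 0.193 for ADAM28, -0.698 to 0.052 for ADAM8, -0.22 to 0.214 for ADAMTS18, -0.274 to 0.016 for ADAMTS17, -0.227 to 0.353 for ADAMTSL3 and -0.003 to 0.116 for THSD4. UAP1 was called lower in all 17 alternatives. At mean CPM of at least 5, the EGF-family ligands called higher went down to 1. EGF and AREG, which averaged under 5 CPM in each group, did not pass that filter and were not tested there. The cause of the other differences was not tested. Members below about 2 CPM have intervals too wide to show changes of the size called elsewhere.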
